A study of Mus musculus with 8 samples.

Results

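The junctions between endothelial cells were followed through 10 genes, Cdh5, Pecam1, Esam, Cldn5, Jam2, Jam3, F11r, Tjp1, Ocln and Ctnnd1. The members were all probes whose RefSeq entry carries one of these symbols, which gave 11 of the 55681 probes on the array, with 2 probes for Ocln and 1 for each other gene. Of the 20145 genes that had a probe, 14504 were tested, and these included 10 of the 10 junction genes. The cells were mouse embryonic stem cells, labelled as strain C57BL/6, with a Runx1 gene that doxycycline switches on (iRUNX1, a Tet-on system). They were differentiated as embryoid bodies for 3.25 days, sorted for the receptor Flk-1 with a repeat sort, and kept for 2 days in hemogenic endothelium culture. Hemogenic endothelium is the endothelium that gives rise to blood. The uninduced group carries the genotype label control and received no doxycycline. The induced group carries the label Runx1 expression and received doxycycline overnight (0.3 µl/ml as labelled). Both groups hold the same inducible construct, and cells given doxycycline without that construct were not analysed here, so an effect of the drug and an effect of Runx1 cannot be told apart. Each group had 3 biological replicates on 1 array each, and 1 further array titled as technical repeat, whose source replicate is not stated.

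Endothelial cells are joined by adherens junctions, built on VE-cadherin and its catenins, and by tight junctions, built on claudins, occludin and the ZO scaffold proteins. Adhesion molecules of the immunoglobulin family, among them PECAM-1, ESAM and the JAM proteins, sit at the same borders and take part in barrier control and in the passage of leukocytes. When hemogenic endothelium gives rise to blood, cells lose these contacts as they round up and detach.

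RefSeq (GRCm38.p6) promoter windows, from 250 bases before to 50 after a transcription start, were at hand for 5 of the 10 genes, with 7 windows in all. Shown are the windows of Cldn5, the gene with the largest fitted fall among the 10, and of Tjp1 and F11r, whose changes lay near 0. Cldn5 lies at chr16:18776597-18776896 on the plus strand, Tjp1 at chr7:65371195-65371494 on the minus strand and F11r at chr1:171437311-171437610 on the plus strand. Each is written 5′ to 3′ on the strand of its gene, with matches to the RUNX motif (TGTGGT or TGCGGT, either strand) in capitals.
Cldn5: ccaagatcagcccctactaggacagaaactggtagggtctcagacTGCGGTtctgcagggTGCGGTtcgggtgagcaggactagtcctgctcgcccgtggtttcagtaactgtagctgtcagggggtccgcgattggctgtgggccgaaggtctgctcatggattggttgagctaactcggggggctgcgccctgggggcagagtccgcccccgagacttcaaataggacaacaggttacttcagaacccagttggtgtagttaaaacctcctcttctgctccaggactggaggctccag
Tjp1: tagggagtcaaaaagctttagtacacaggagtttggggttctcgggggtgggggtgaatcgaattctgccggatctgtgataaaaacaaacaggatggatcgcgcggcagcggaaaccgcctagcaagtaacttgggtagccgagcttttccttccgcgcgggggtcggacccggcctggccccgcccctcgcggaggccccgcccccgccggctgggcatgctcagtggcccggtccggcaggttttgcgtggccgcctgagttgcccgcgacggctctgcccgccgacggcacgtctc
F11r: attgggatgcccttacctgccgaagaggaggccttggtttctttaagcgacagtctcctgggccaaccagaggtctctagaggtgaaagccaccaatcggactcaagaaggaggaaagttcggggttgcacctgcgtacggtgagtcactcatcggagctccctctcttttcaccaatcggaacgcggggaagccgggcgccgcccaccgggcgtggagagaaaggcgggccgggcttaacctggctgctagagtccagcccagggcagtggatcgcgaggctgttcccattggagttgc
The Cldn5 window held 2 RUNX matches, which begin at -205 and -190 from the start site. The windows of Tjp1, F11r, Ocln and Ctnnd1 held 0. No window was at hand for Cdh5, Pecam1, Jam2, Jam3 and Esam, the gene with the next largest fitted fall after Cldn5. Of 32851 promoter windows of this length, 22.4% held at least 1 RUNX match and 2.86% held 2 or more. The Tjp1 window held 1 ETS match (CGGAAG), 1 GATA match (TGATAA) and 2 KLF/SP matches (GGGCGG), while Cldn5 and F11r held 1 KLF/SP match each. At least 1 KLF/SP match was present in 35.7% of all windows, an ETS match in 16.9% and a GATA match (AGATAA or TGATAA) in 18.6%. These matches did not overlap each other. A match of letters describes the window and is not evidence of binding.

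On the 8 arrays 55.6% to 70.4% of spots were well above background. The processed signal had a 75th percentile of 699, 378 and 338 on uninduced and of 973, 595 and 543 on induced arrays 1, 2 and 3. The 8 arrays lay on 1 slide. Replicates 1 and 2 of both groups lay in array row 1, and replicate 3 and both technical repeats in array row 2. Uninduced and induced arrays of the same number deviated together from their group means, so a fit with the replicate number as a block (the paired fit) is given beside the fit without it (the unpaired fit) where it changes a call. The induced technical repeat stood apart. Over 32811 probes it differed from induced replicates 1, 2 and 3 by a root mean square of 0.87, 0.97 and 0.76 log2 units, against 0.52 to 0.60 among those replicates. Both technical repeats were left out of the main tests by plan, because they are not independent of a replicate. Their values are given beside the replicates. Runx1 itself had 2 probes. The first, above background on 3 of 3 uninduced and 2 of 3 induced arrays, read -4.57 ± 0.25 (SD, n = 3) in uninduced and -5.60 ± 0.60 in induced cells, a change of -1.03 (SE 0.32, adjusted p = 0.126 in limma, 0.0214 in the paired fit). The second was well above background on 0 of these arrays. No source used here places these probes inside or outside the inducible construct. They therefore do not check the labels, and induced and uninduced mean what the labels say.

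Values below are log2 processed signals relative to the 75th percentile of their array, so 0 stands for that percentile and a difference of 1 for a doubling relative to it. Relative to spiked-in control transcripts each change is 1.12 higher on average, so falls smaller than that turn sign there. The comparison asked how the junction genes differ when Runx1 is induced. Esam and Cldn5 were lower on the induced array in each of the 3 replicate pairs, with differences from -2.69 to -1.51 and from -3.39 to -1.51 log2 units, and both fell in the paired fit. Cdh5 and Pecam1 were also lower in every pair, by smaller amounts that passed in neither fit. The changes of Ctnnd1, Ocln, Tjp1, F11r, Jam2, Jam3 and Cdh5, 7 of the 10, lay within 0.4 log2 units of 0. Without the block, 0 of the 10 passed an adjusted p of 0.05, and the lowest adjusted p was 0.186. Of all 14504 genes 2.16% fell and 4.14% rose by that rule. At an unadjusted p under 0.05 it was 1 of the 10, Esam, against 21.6% of all genes. In the paired fit 2 of the 10 (20%) fell, against 6.81% of all genes, and 0 rose, against 9.37%. With the array row as block in place of the replicate number, 0 of the 10 passed (adjusted p = 0.0601 for Esam and 0.142 for Cldn5 in limma).

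**Figure D1:**
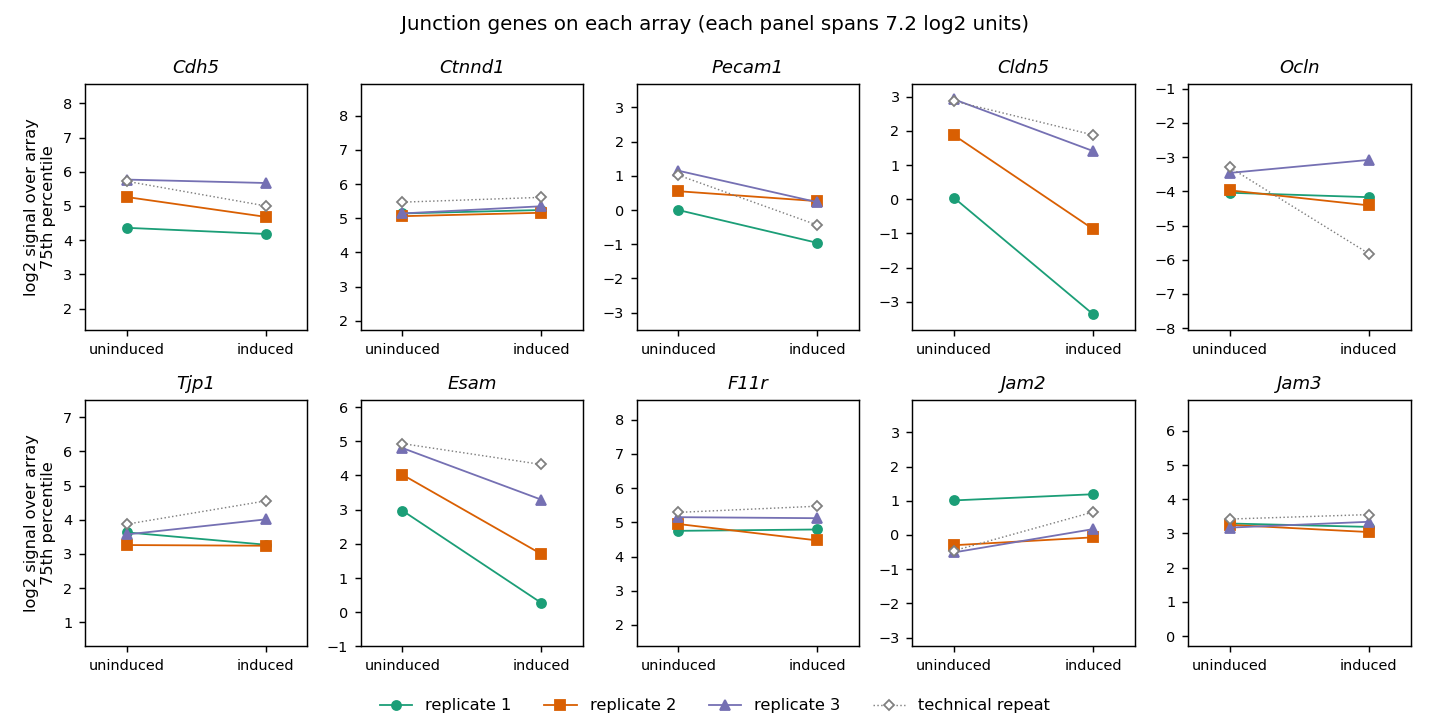
Log2 processed signal over the 75th percentile of its array (vertical axes, each spanning the same number of log2 units) for the 10 junction genes on the uninduced and induced arrays. Coloured lines join the arrays of replicates 1, 2 and 3, and open diamonds are the technical repeats. Cldn5 and Esam fall along all 3 lines, replicate 1 lies lowest in both groups for Cdh5, Esam and Cldn5, and the lines of Ctnnd1 and Jam3 are nearly flat.

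Cdh5 on chromosome 8 encodes VE-cadherin, the adhesive cadherin of endothelial adherens junctions, and was read by probe A_52_P248604. It read 4.36, 5.26 and 5.77 on uninduced arrays 1, 2 and 3, and 4.18, 4.68 and 5.67 on induced arrays 1, 2 and 3. Replicate 1 was the lowest and replicate 3 the highest in both groups, and the groups overlapped almost entirely. The means were 5.13 ± 0.72 and 4.85 ± 0.76 (SD, n = 3), a change of -0.28 (SE 0.48, 95% interval -1.44 to 0.87, adjusted p = 0.751). The paired interval was -0.66 to 0.09, so a fall of the size seen for Esam or Cldn5 lies outside it. The induced technical repeat was 0.72 below the uninduced one (5.00 against 5.72). In such a bulk sample, fewer cells of a type and less RNA per cell cannot be told apart.

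Ctnnd1 on chromosome 2 encodes p120-catenin, which binds the cadherin tail and holds VE-cadherin at the membrane. Its probe A_55_P1953252 read 5.14, 5.06 and 5.14 on the uninduced and 5.24, 5.16 and 5.35 on the induced arrays. It was the only one of the 10 whose groups did not overlap, with a gap of 0.01 between them, and induced arrays lay wholly above uninduced ones for 19.6% of all genes. The change was 0.14 (SE 0.13, 95% interval -0.18 to 0.46, adjusted p = 0.575). Its spread within a group, a range of 0.09 and 0.20, was the smallest of the 10 genes.

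Cldn5 on chromosome 16 encodes claudin-5, the main claudin of endothelial tight junctions, and was read by probe A_51_P189814. It read 0.04, 1.87 and 2.92 on the uninduced arrays and -3.36, -0.87 and 1.41 on the induced arrays. Replicate 1 was lowest and replicate 3 highest in both groups, and induced replicate 3 lay above uninduced replicate 1, so the groups overlapped. The means were 1.61 ± 1.46 and -0.94 ± 2.38 (SD, n = 3), a change of -2.55 (SE 1.26, 95% interval -5.55 to 0.46), or 5.84-fold on the linear scale, with an adjusted p of 0.295. Within pairs the differences were -3.39, -2.74 and -1.51, and the paired fit gave an interval of -3.48 to -1.62 with an adjusted p of 0.0127. That adjusted p was 0.0491 without replicate 1, 0.0566 without replicate 2 and 0.000644 without replicate 3, so the call was lost without replicate 2. The technical repeats read 2.87 uninduced and 1.88 induced, closer together than the arrays of any replicate pair.

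Ocln on chromosome 13 encodes occludin, a tight junction membrane protein that regulates the barrier. Its probe A_51_P486155 read -4.04, -3.97 and -3.46 on the uninduced and -4.17, -4.41 and -3.08 on the induced arrays. The groups overlapped and the pairs differed in sign, with a change of -0.06 (SE 0.37, 95% interval -0.95 to 0.82, adjusted p = 0.933). This probe was dim, though well above background on 3 of 3 arrays of each group. With normexp background correction its change was -0.33. The induced technical repeat, at -5.82, lay below all replicate arrays, while the uninduced one read -3.30. The second Ocln probe, A_55_P2055694, passed the background flag on 0 uninduced and 1 induced replicate array and was not tested.

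Tjp1 on chromosome 7 encodes ZO-1, the scaffold that ties claudins, occludin and JAM proteins to actin. Its probe A_55_P2034998 read 3.63, 3.26 and 3.57 on the uninduced and 3.27, 3.24 and 4.01 on the induced arrays. The pair differences were -0.36, -0.01 and 0.44, and the change was 0.02 (SE 0.25, 95% interval -0.57 to 0.62, adjusted p = 0.965). The technical repeats read 3.87 uninduced and 4.55 induced, the latter above all 6 replicate arrays.

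Esam on chromosome 9 encodes an adhesion molecule of endothelial tight junctions and platelets, and was read by probe A_55_P2125811. It read 2.97, 4.02 and 4.80 on the uninduced arrays and 0.27, 1.70 and 3.29 on the induced arrays. As for Cldn5, replicate 1 was lowest and replicate 3 highest in both groups, and induced replicate 3 overlapped the uninduced arrays. The means were 3.93 ± 0.92 and 1.76 ± 1.51 (SD, n = 3), a change of -2.17 (SE 0.80, 95% interval -4.09 to -0.26), or 4.51-fold. The adjusted p was 0.186 without the block and 0.0067 in the paired fit, whose interval was -2.80 to -1.55. It was 0.0336, 0.0362 and 0.000773 in the paired fit without replicate 1, 2 and 3. With the technical repeats averaged into replicate 1, the unpaired change was -1.83 with an adjusted p of 0.032. Averaged into replicate 2 or 3, it was -1.89 or -2.03, with an adjusted p of 0.198 or 0.249. The labels do not say which of these 3 choices applies. The technical repeats themselves read 4.93 uninduced and 4.32 induced, a difference of -0.62, so the induced repeat lay above all 3 induced replicates.

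Pecam1 on chromosome 11 encodes PECAM-1, which binds itself across endothelial borders and serves leukocyte passage. Its probe A_55_P2087087 (2 spots) read 0.00, 0.55 and 1.15 on the uninduced and -0.96, 0.26 and 0.23 on the induced arrays. The pair differences of -0.96, -0.30 and -0.92 were all below 0, and the groups overlapped. The change was -0.73 (SE 0.42, 95% interval -1.74 to 0.28, adjusted p = 0.364). The paired interval excluded 0, at -1.18 to -0.28, with an adjusted p of 0.0525. With normexp background correction in the paired fit, chosen after seeing the data, the change was -0.63 with an adjusted p of 0.0211. Of 27 alternative settings, this was the only 1 in which Pecam1 passed. The technical repeats read 1.02 uninduced and -0.44 induced, the largest distance among the 4 pairs of arrays.

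F11r, Jam2 and Jam3 encode the JAM-A, JAM-B and JAM-C proteins, which bind across cell borders and take part in leukocyte passage. F11r on chromosome 1 (probe A_51_P458866) read 4.75, 4.95 and 5.15 on the uninduced and 4.79, 4.47 and 5.12 on the induced arrays, a change of -0.16 (SE 0.21, 95% interval -0.66 to 0.35, adjusted p = 0.683). Jam3 on chromosome 9 (probe A_51_P358354) read 3.29, 3.25 and 3.17 on the uninduced and 3.19, 3.04 and 3.34 on the induced arrays, a change of -0.05 (SE 0.14, 95% interval -0.40 to 0.29, adjusted p = 0.856). Both overlapped between the groups, and both had pairs of either sign. Jam2 on chromosome 16 (probe A_55_P2123502) read 1.01, -0.30 and -0.51 on the uninduced and 1.19, -0.07 and 0.17 on the induced arrays. It was higher on the induced array in every pair, by 0.18, 0.24 and 0.68, and its highest value in both groups was in replicate 1, where Cdh5, Esam and Cldn5 were lowest. Its change was 0.37 (SE 0.49, 95% interval -0.80 to 1.54, adjusted p = 0.685), and the paired interval was -0.02 to 0.75.

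**Figure D2:**
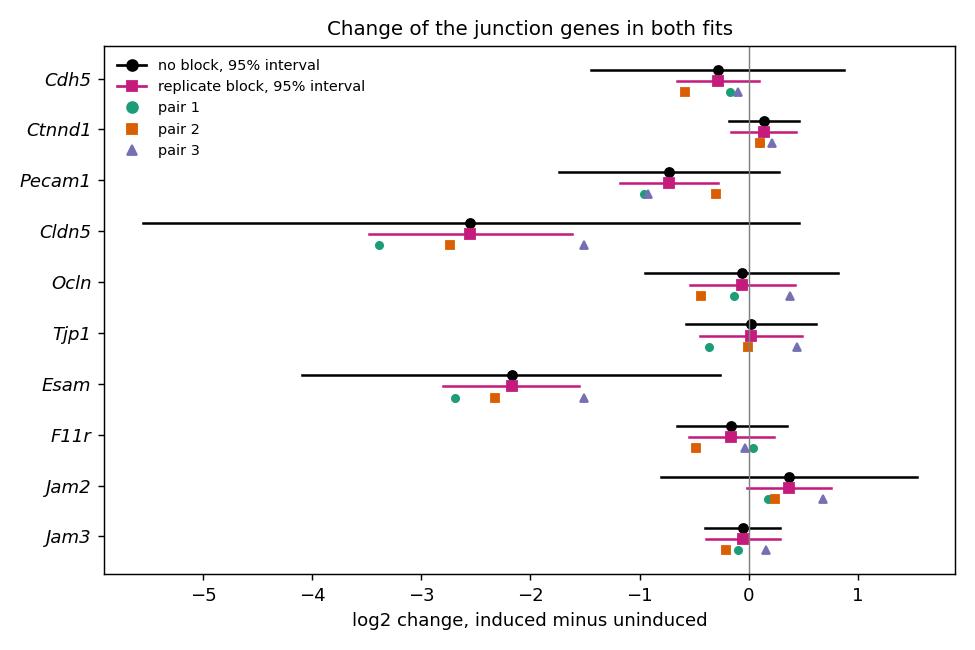
Fitted log2 change, induced minus uninduced (horizontal axis), of each junction gene in the unpaired fit (black circle) and the paired fit (magenta square), with 95% intervals as lines, and the difference within each of the 3 replicate pairs (small symbols below). The paired intervals of Cldn5, Esam and Pecam1 lie below 0, and 4 genes have all 3 pairs below 0.

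By direction within pairs, Cdh5, Pecam1, Esam and Cldn5 (4 of the 10, 40%) were lower on the induced array in all 3 pairs, against 21.8% of all genes tested. Jam2 and Ctnnd1 (2 of the 10, 20%) were higher in all 3 pairs, against 37.8% of all genes, and the other 4 were mixed. No junction gene had every induced array below every uninduced array, against 8.71% of all genes. The median change of the 10 was -0.11, against 0.09 over all genes.

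The sizes of the changes were compared between members pair by pair, in 6 contrasts that were not planned. Most set Cldn5 or Esam, which had the largest fitted falls, against a member with a smaller change. The sign of those contrasts follows in part from that choice. The change of Cldn5 minus that of Cdh5 was -3.22, -2.16 and -1.41 log2 units in pairs 1, 2 and 3, a mean difference of -2.26 ± 0.91 (SD, n = 3). For Esam minus Cdh5 it was -2.52, -1.74 and -1.41 (-1.89 ± 0.57). Cldn5 against Tjp1, its scaffold, gave -2.57 ± 0.56, and Esam against F11r gave -2.01 ± 0.64, again with all 3 pairs below 0. Jam2 was above Jam3 by 0.42 ± 0.12. Pecam1 against Cdh5 gave -0.44 ± 0.63, with pairs 1 and 3 at -0.79 and -0.82 and pair 2 at 0.29, so the pairs differed in sign. With 3 pairs the exact two-sided sign-flip test cannot go below p = 0.25, which 5 of the 6 contrasts reached (0.30 after Benjamini-Hochberg adjustment over the 6), while Pecam1 against Cdh5 had p = 0.50.

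Replicates differed most for Cldn5 and Esam. The range over the 3 uninduced arrays was 2.88 for Cldn5, 1.83 for Esam, 1.51 for Jam2, 1.41 for Cdh5 and 1.15 for Pecam1, against 0.59 or less for the other 5. Over the induced arrays it was 4.77 for Cldn5 and 3.02 for Esam. Of 12 endothelial markers, replicate 1 was lowest in both groups for 12 and replicate 3 highest in both for 10. The summed linear signal of the 12, to which the brightest contribute most, in units of the 75th percentile of each array, was 273, 564 and 666 on uninduced and 134, 242 and 365 on induced arrays 1, 2 and 3. All 12 markers were measured, their median change was -0.95, and 2 fell in the unpaired fit and 6 in the paired fit. The 2 were Tek, an angiopoietin receptor, at -1.13 (SE 0.24, adjusted p = 0.0414) and Eng, endoglin, at -0.92 (SE 0.16, adjusted p = 0.0234). The part of this shift in the junction genes was not tested.

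Over the 6 arrays, each gene centred on its own mean, Esam and Cldn5 differed by a root mean square of 0.63, and Cdh5 and Pecam1 by 0.39. Jam3 and Ctnnd1 were the closest members (0.11) and Cldn5 and Jam2 the farthest (2.59). Among all tested genes the 3 most like Cldn5 were Robo4 (0.27), a guidance receptor of endothelium, Emcn (0.28), an endothelial sialomucin, and Gja5 (0.32), the connexin of arterial endothelium. Their changes were -2.99, -2.84 and -2.68, and nearness to the change of Cldn5 follows in part from how they were picked. Those most like Cdh5 were Sema3f and Ripply3 (0.13 each) and Irx1 (0.14), and those most like Pecam1 were Krt8 (0.12), Pygo1 (0.16) and Mfap2 (0.17). Among the genes nearest to Tjp1 were Arhgef12 and Scamp1 (0.09 each). For a gene that varies little, such as Tjp1, a small distance says little about a shared course.

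**Figure D3:**
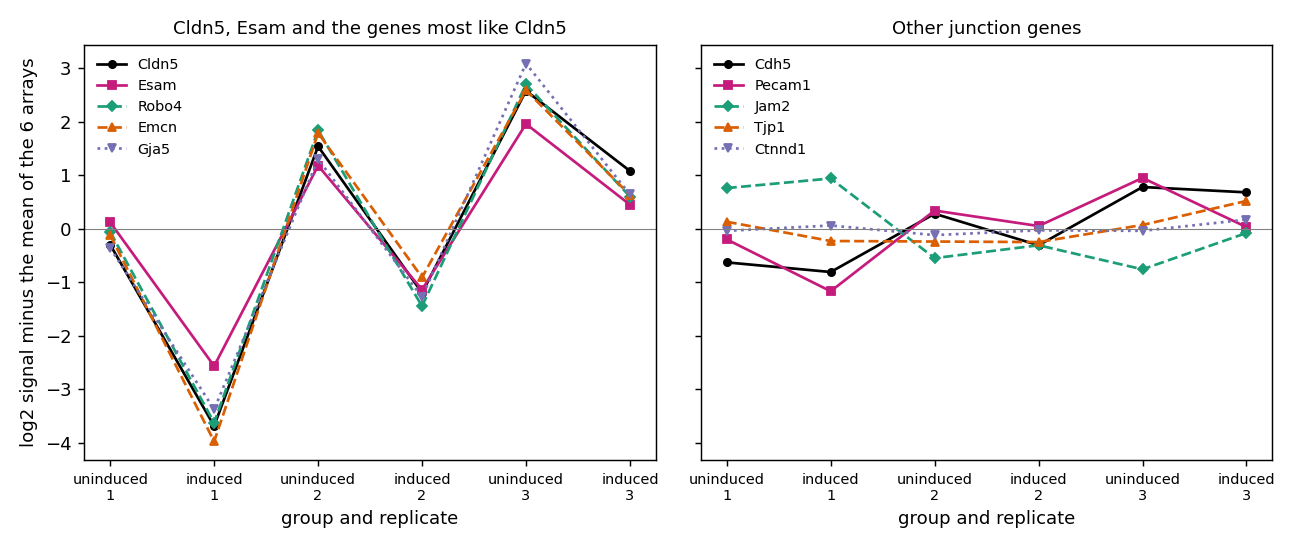
Log2 signal minus the gene's mean over the 6 arrays (vertical axis) by group and replicate (horizontal axis), on the left for Cldn5, Esam and the 3 genes most like Cldn5, and on the right for 5 other junction genes, with lines that only join the points of a gene. The left-hand genes are lower on the induced than the uninduced array of each replicate and lowest in replicate 1 in both groups, while Ctnnd1 and Tjp1 stay near 0 and Jam2 is highest in replicate 1.

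Other genes of the same structures were read from lists. Of 25 other tight junction genes tested (30 listed), 0 rose, 3 fell and 22 did not pass, with a median change of -0.19. The 3 were Cgn, cingulin, which went from 0.87 ± 0.13 to -0.56 ± 0.16 (SD, n = 3; change -1.43, SE 0.15, adjusted p = 0.00461), Cgnl1, paracingulin (-2.23, SE 0.46, adjusted p = 0.0396), and Pard6b, a polarity protein (-2.40, SE 0.47, adjusted p = 0.0324). Cingulin and paracingulin bind ZO-1 on its inner side, while Tjp1 itself had a change of 0.02. With normexp background correction Cgnl1 no longer passed (-1.46, adjusted p = 0.059). In the paired fit 4 of the 25 fell and 2 rose.

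Of 22 other adherens junction genes, 0 rose and 1 fell, with a median of -0.11. Afdn, afadin, which links nectins to actin, went from -0.48 ± 0.36 to -2.15 ± 0.55 (change -1.67, SE 0.32, adjusted p = 0.0311). The catenin genes Ctnna1 and Ctnnb1, partners of VE-cadherin beside p120-catenin, had changes of -0.01 and -0.08. In the paired fit 5 fell and 1 rose. Among those that fell were Ptprm, a receptor phosphatase of cell borders (-1.67, adjusted p = 0.00263), and Jup, plakoglobin (-1.17, adjusted p = 0.0181), and the gene that rose was Nectin1 (0.87, adjusted p = 0.0107).

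Among 14 Rap1 and cerebral cavernous malformation genes, 3 fell and 0 rose, with a median of -0.29. Sipa1l2, a gene of the Rap1 GTPase-activating family, went from 5.22 ± 0.06 to 3.88 ± 0.09 (change -1.34, SE 0.13, adjusted p = 0.00366). Arhgap29, a GTPase-activating protein that works with Rasip1, fell by 1.00 (SE 0.18, adjusted p = 0.0273). Heg1, a membrane partner of the malformation proteins, fell by 0.79 (SE 0.16, adjusted p = 0.0375), and its adjusted p was 0.0792 with normexp. In the paired fit 6 fell, including Rasip1 (-2.02, adjusted p = 0.0168) and the Rap1 activator Rapgef3 (-1.19, adjusted p = 0.00683).

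Among the gap junction genes (7 tested of 9 listed) Panx1, a pannexin channel gene, rose from 3.06 ± 0.21 to 4.04 ± 0.30 (change 0.98, SE 0.21, adjusted p = 0.0416). The median was -0.12. The endothelial connexin genes Gja4 and Gja5 passed in the paired fit (-2.53, adjusted p = 0.00299, and -2.68, adjusted p = 0.00143). Of 8 molecules of leukocyte passage and other border functions, 0 passed in the unpaired fit and 2 fell in the paired fit, Emcn (-2.84, adjusted p = 0.00943) and Icam2 (-1.75, adjusted p = 0.0209). The brightest of the 8, Cd151, a tetraspanin, had a change of -0.19 (SE 0.15, adjusted p = 0.494), and its second kept probe one of -0.93. The median of the 8 was -0.48. With all kept probes of a gene averaged it was -0.76, and 1 of the 8 fell. Of all genes tested, 41% had a change below 0, against 64% of the tight junction, 72.7% of the adherens junction, 57.1% of the Rap1, 57.1% of the gap junction and 87.5% of the border molecule list.

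These list counts were sensitive to the scale and to single arrays. With 1 array left out, 1 to 3 tight junction, 0 to 2 adherens junction, 1 to 2 Rap1 and 0 to 1 endothelial genes fell. Cgn and Sipa1l2 passed with each of the 6 arrays left out in turn, Pard6b, Afdn and Arhgap29 in 2 of the 6 cases, Cgnl1, Panx1 and Eng in 1 (without uninduced replicate 1), and Heg1 and Tek in 0. Panx1 also missed the threshold with no filter on dim probes and relative to the spiked-in transcripts (a change of 2.10 there). Relative to the spiked-in transcripts 0 tight junction, 0 adherens junction, 0 Rap1 and 0 endothelial genes fell in the unpaired fit. On that scale the list medians were 0.94, 1.02, 0.83 and 0.17 in the same order, Arhgap29 (0.13), Heg1 (0.33) and Eng (0.21) turned sign, and Cgn (-0.31), Sipa1l2 (-0.22) and Afdn (-0.54) kept theirs.

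**Figure D4:**
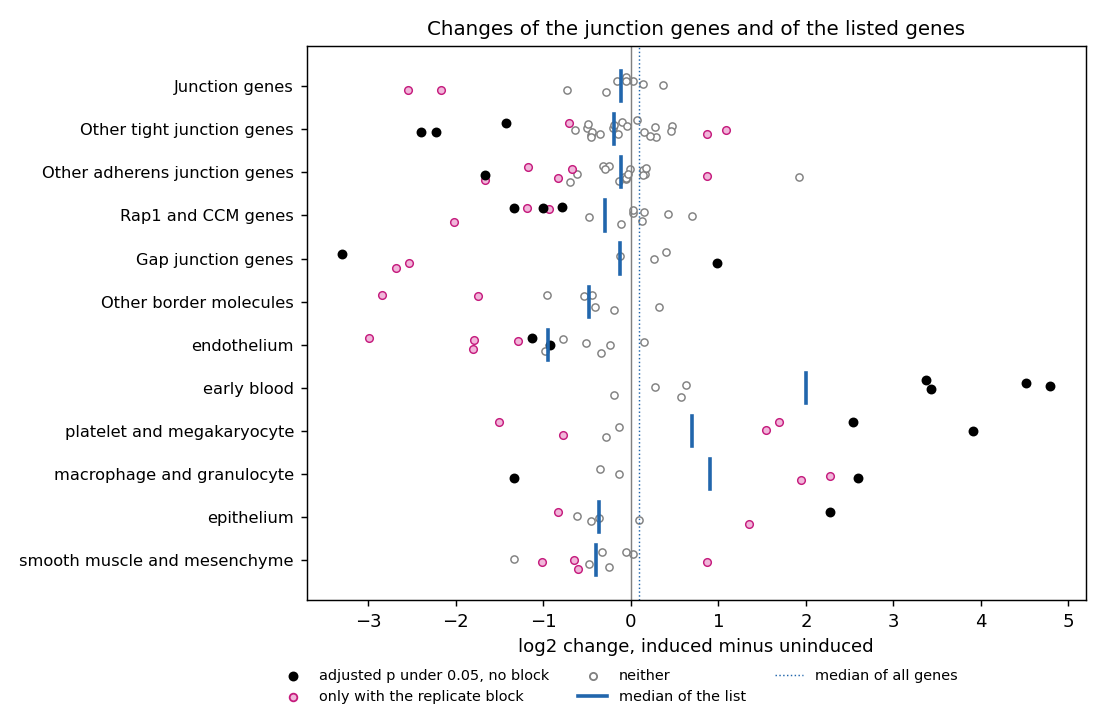
Log2 change, induced minus uninduced (horizontal axis), of each tested gene of the junction gene set, the junction-related lists and the marker lists (rows, with a small vertical scatter for legibility). Filled black points passed in the unpaired fit and pink points in the paired fit alone. Thick bars mark the median of a list and the dotted line the median of all genes. The junction genes spread from -2.55 to 0.37 around a median of -0.11.

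Markers of other cells moved as well. Of 8 early blood markers 4 rose, Myb (4.79), Spn (4.51), Coro1a (3.43) and Gfi1 (3.37), and their summed signal went from 6.98, 10.3 and 14.1 to 20.6, 37.7 and 36.7. Myb and Spn were dim on the uninduced arrays (means of -3.42, with 2 of 3 above background, and -4.14), and with normexp their changes were 3.38 and 2.83. With 1 array left out 3 to 4 of the 8 rose, and Gfi1 passed in 3 of 6 cases. Ptprc, the pan-leukocyte CD45, was dim in both groups (means of -4.59 uninduced and -4.78 induced) and had a change of -0.19 (adjusted p = 0.562). Of 8 platelet and megakaryocyte markers tested 2 rose, Itgb3 (3.91) and Pf4 (2.54), and the summed signal went from 6.18, 8.94 and 4.77 to 58.0, 45.1 and 46.3, while Esam, which platelets also carry, was lower in every pair. With the block 4 rose and 2 fell, Treml1 (-1.51, adjusted p = 0.0363) and Gp5 (-0.77, adjusted p = 0.0319). Gp5 was dim in both groups (means of -4.03 uninduced and -4.8 induced). Itgb3 passed with each array left out in turn and Pf4 in 1 of the 6 cases (without uninduced replicate 2). Of 6 macrophage and granulocyte markers Csf1r fell (-1.33) and Fcgr3 passed upward, though Fcgr3 was well above background on 0 uninduced arrays and its change was 0.59 with normexp (adjusted p = 0.313). The Csf1r call held in 1 of 6 cases with an array left out (without induced replicate 2), its change was -0.21 relative to the spiked-in transcripts, and its 3 probes ran from -2.14 to -0.42. The summed signal, in which Csf1r was the brightest, went from 6.83, 7.27 and 9.18 to 4.00, 6.45 and 3.87, while the median change of the 6 was 0.91. With the block 3 rose and 1 fell. Of 7 epithelial markers tested Cdh1, E-cadherin, rose by 2.27 (SE 0.34, adjusted p = 0.0139; 1.15 with normexp), a call lost without induced replicate 3, and the summed signal was 196, 297 and 394 against 235, 281 and 324. Of 10 smooth muscle and mesenchyme markers 0 passed in the unpaired fit and 3 fell in the paired fit, where 1 rose. Their summed signal went from 817, 914 and 859 to 713, 607 and 568. Epithelial cells also express Tjp1, Ctnnd1, F11r and Ocln. The part of other cells in the values of the junction genes was not tested.

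The scale sets the direction of the small changes. Relative to the spiked-in control transcripts, the induced array had the higher 75th percentile in each pair, by 1.02, 0.75 and 1.60 log2 units, and the median gene had a change of 1.21 in place of 0.09. On that scale 4.99% of all genes rose and 0.0758% fell in the unpaired fit. Cldn5 and Esam kept a change below 0 there, at -1.42 and -1.05, while Cdh5 (0.84), Pecam1 (0.40), Jam3 (1.07), F11r (0.96) and Ocln (1.06) changed sign, and 0 of the 10 passed. In the paired fit on that scale 7 of the 10 rose, against 85.7% of all genes, and Cldn5 and Esam fell, against 1.1%. Statements on the other genes are thus relative to the bulk of the probes on the same array.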

How the data were processed

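The authors deposited Agilent Feature Extraction output for 8 1-colour arrays, with the processed signal of each spot as a linear intensity, and flags coded 0 and 1. The software was version 10.7.3.1 per the file headers, and 10.7.1.1 with limma per the submitters' processing notes. A further table deposited by the authors holds log2 values of unstated normalization and centring. Set against the scanner signals, 2 of its 8 columns matched the array in their name and 6 a different one, so it served only as an alternative.

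Control spots were left out, 59305 spots remained, and 0 were saturated. Of these, outlier-flagged spots (114 to 246 per array) were then left out on each array. The 75th percentile of each array was subtracted from its log2 processed signals. Probes well above background on all 3 arrays of a group were kept (32811). Symbols came from RefSeq (GRCm38.p6, for 26582 probes; the design names mm9), and each gene took its brightest kept probe. The groups were compared in limma 3.58.1 (R 4.3.3) with two-sided tests, adjusted over 14504 genes by Benjamini-Hochberg, at a threshold of 0.05. The number of arrays limits the precision. Whether the 3 replicates came from separate cultures rests on the labels, which call them independent.

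The labels' replicate numbers were checked as pairs. Deviations from the group means of arrays with the same number correlated at 0.65, 0.45 and 0.43, so the numbers were taken as pairs and the replicate number as a block gave the paired fit. Among the replicates, only replicate 3 lay in array row 2, so for it pairing and array row cannot be told apart.

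The members and lists were chosen with earlier results of these data known. Lists are described by counts and medians. Named are all members, list genes past the threshold (otherwise the brightest), and the 3 genes most alike by centred root mean square difference. Genes that passed in the paired fit alone, Ctnna1, Ctnnb1, Ptprc and Runx1 were named after their values were seen. The contrasts between members were not planned. Alternatives covered scaling, normexp (on the median signal, offset 50), filters, probe choice, blocks, technical repeats and single arrays left out. Some genes that the naming rule picks are not reported here. The script was tested on simulated data.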

Additional observations from a re-analysis of the deposited data

How the results depend on the processing

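Blocks on all 6 arrays, filters and probe choice left the change of a gene with 1 kept probe as it was. Those settings could not alter its sign. Esam and Cldn5 had a change below 0 in 26 of 27 alternative settings each, and Ctnnd1 one above 0 in 27 of 27. The exception was the deposited value table with its columns read by name, under which 0 genes passed and the changes were 0.94 for Esam, 1.42 for Cldn5, 0.43 for Cdh5, 0.50 for Pecam1, -0.82 for Jam2, 0.03 for Jam3 and 0.03 for Ocln. Adjusted p-values over these settings ran from 0.000103 to 1 for Esam, from 0.000132 to 1 for Cldn5 and from 0.0211 to 1 for Pecam1. Read by the array they track, the columns gave -0.13 for Tjp1 and 0.04 for Ocln. With the replicate block 2346 of 14504 genes passed in place of 915, and 2 junction genes in place of 0. The count of all genes was 534 with no filter on dim probes, 1625 and 1622 with the technical repeats averaged into replicate 1 or 2 (1 junction gene for replicate 1), and 358 to 822 with 1 array left out, where 0 junction genes passed each time. The Cldn5 change then ran from -3.72 to -1.34, and the Esam change from -2.94 to -1.43. Chosen after seeing the data, the block together with other choices gave 12590 genes with spike-in scaling (9 junction genes), 4385 with normexp (3), 2200 with quantile normalization (2), 2944 with median centring (2), and 1013 to 1968 without a replicate (1 to 2). Small changes turned sign, the scaling and normexp values being the same with and without the block: under spike-in scaling Cdh5 (0.84), Pecam1 (0.40), Jam3 (1.07), F11r (0.96) and Ocln (1.06), under quantile normalization Tjp1 (-0.08) and Ocln (0.09), under median centring Jam3 (0.11) and Ocln (0.09), under normexp Jam3 (0.02), and, run without the block, with the repeats averaged into replicate 2 Jam3 (0.01). Of the called genes 65.7% rose, 76.9% under median centring and 98.5% under spike-in scaling. With 1 array left out, values ran from -0.70 to 0.05 for Cdh5, from -0.47 to 0.20 for Ocln, from -0.13 to 0.03 for Jam3, from -0.32 to 0.00 for F11r, from -0.01 to 0.84 for Jam2 and from -0.23 to 0.15 for Tjp1. The block without replicate 2 gave 0.03 for Jam3, 0.00 for F11r and 0.13 for Ocln, and without replicate 3 -0.19 for Tjp1. The cause of these differences was not tested.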
